A study of Mus musculus with 3 samples.

Results

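The Zscan4 gene cluster of mouse chromosome 7 was described in 2-cell embryos as the 1500 windows of 1 kb that make up chr7:10800001-12300000 of the mm9 genome build, out of 2725763 nuclear windows. The region is set by its coordinates, with no threshold on its level, and it was picked with earlier results of these embryos known. RNA came from embryos at embryonic day 1.5, and each of the 3 libraries was made from the embryos of a litter, so a value per litter is a mean over pooled embryos. The mothers were of mixed strain. They carried floxed alleles of LSD1, the gene of a histone demethylase, on both chromosomes (FL/FL) and were ZP3::Cre negative, that is, without the Cre transgene driven by the oocyte promoter ZP3. The fathers are given as wild type CB6 males in one label and as C57/Bl6J males in another. All 3 litters belong to the same group, so the values describe the 2-cell stage and the spread between litters, and there is no contrast between conditions. Litters were lysed directly and the RNA was amplified by SPIA, in which cDNA is made and then copied linearly at constant temperature.

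Zscan4 genes encode nuclear proteins with a SCAN domain, through which such proteins pair, and zinc fingers that bind DNA. They are known for a burst of transcription at the 2-cell stage, when the mouse embryo starts its own transcription, and for brief activation in a small part of embryonic stem cells, where Zscan4 is tied to telomere lengthening. The family is a cluster of near-identical copies in both orientations, and Zscan4d has been described as the main copy in 2-cell embryos and Zscan4c as the main copy in embryonic stem cells. In the annotation the nearest protein-coding neighbours are Vmn1r70, Nlrp4b and Vmn1r71 on one side and Vmn1r72, Vmn1r73 and Vmn1r74 on the other. Vmn1r genes encode pheromone receptors of the vomeronasal organ.

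The unit counted was an ungapped alignment of 72 bases, recovered from the deposited coverage together with its start position. Its strand is not known, and a read that matches several copies can be counted at each of them. Levels are given as RPKM, which here means alignments per kb per 1000000 nuclear alignments. The nuclear depth was 34014013, 32431630 and 40474940 alignments in litters 1, 2 and 3. The cluster held 35504, 71766 and 32551 of them in litters 1, 2 and 3.

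Why the copies can be compared at all is best seen in their sequences. The letters shown are from transcripts of the GENCODE M21 annotation, 5′ to 3′, all from exon 4, the last exon, which encodes the zinc fingers. Positions are counted from 1 at the first base of exon 4. The first stretch, bases 897 to 968 of Zscan4f, is shown because it is the same in all 9 copies.
Zscan4f: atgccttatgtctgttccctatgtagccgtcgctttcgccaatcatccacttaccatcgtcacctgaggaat
At the start of this stretch each of the 9 copies had 1, 11 and 3 alignments in litters 1, 2 and 3, so the deposited counts were the same at every copy where the bases were the same. The next stretch, bases 144 to 215, is shown because the gap of Zscan4d over Zscan4f was largest there, and capitals mark the 6 bases that differ between these copies.
Zscan4d: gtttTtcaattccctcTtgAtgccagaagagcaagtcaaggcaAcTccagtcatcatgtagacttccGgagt
Zscan4f: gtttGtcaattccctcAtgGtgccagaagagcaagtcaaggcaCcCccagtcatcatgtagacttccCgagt
Zscan4d had 10, 0 and 0 alignments at the start of this stretch in litters 1, 2 and 3, and Zscan4f had 0, 1 and 1. The other copies were at 0 in litter 1 here, so the 10 alignments of litter 1 lay at Zscan4d alone. The stretch at bases 519 to 590 is shown for the opposite order, with capitals at the 6 bases that differ.
Zscan4f: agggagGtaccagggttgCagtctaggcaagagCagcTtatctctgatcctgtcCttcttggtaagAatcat
Zscan4d: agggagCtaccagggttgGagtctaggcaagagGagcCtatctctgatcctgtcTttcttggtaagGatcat
Zscan4f had 3, 16 and 6 alignments at its start in litters 1, 2 and 3, and Zscan4d had 0, 1 and 0. The last stretch starts at base 761 of Zscan4b and base 764 of Zscan4f, and capitals mark the 4 bases by which Zscan4b differs from Zscan4f. Zscan4e has the letters of Zscan4b in this stretch.
Zscan4b: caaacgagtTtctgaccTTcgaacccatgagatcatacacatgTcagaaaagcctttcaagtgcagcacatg
Zscan4f: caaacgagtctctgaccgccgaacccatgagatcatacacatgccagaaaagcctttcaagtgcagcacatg
Here Zscan4b and Zscan4e each had 2, 6 and 12 alignments in litters 1, 2 and 3, and Zscan4f had 3, 1 and 4. Zscan4b was thus the higher of the 2 in litters 2 and 3 and the lower in litter 1. These last 3 stretches were picked for their differences, so their counts are a description only.

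Alignments in the cluster were concentrated on the Zscan4 genes and on a single short island. The density over all 1500 windows was 0.696, 1.48 and 0.536 RPKM in litters 1, 2 and 3, a mean of 0.902 ± 0.502 (SD, n = 3). The rest of chromosome 7 had 0.309, 0.335 and 0.300 RPKM, a mean of 0.314 ± 0.0181 (SD, n = 3). As counted, with reads at every copy they match and with the island included, the cluster was denser than the rest of the chromosome in 3 of 3 litters. The log2 ratio (pseudocount 0.1 RPKM) was 0.96, 1.86 and 0.67 in litters 1, 2 and 3, a mean of 1.16 ± 0.62 (SD, n = 3). With signs flipped over litters, the exact permutation test (two-sided) gave p = 0.25, which is the smallest p that 3 litters allow. The density of the cluster counts reads at every copy they match, which raises it over that of single-copy sequence. It also includes the island, with 8444, 6409 and 6706 alignments in litters 1, 2 and 3, whose counts recurred on other chromosomes (below). The comparison by litter was not repeated without the island or with copies counted once, so it does not show a higher density apart from these. In a setting that counted copies once the mean was 0.664 RPKM. That setting is not the family measure given below, which takes the highest copy at each aligned position. Some repeat counting can therefore remain in this value.

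A window was called covered at 1 RPKM or more in all 3 litters. By this rule 39 of 1500 cluster windows were covered (2.6%), against 1904 of 151025 windows in the rest of chromosome 7 (1.26%) and 32414 of 2725763 nuclear windows (1.19%). Of the 39, 14 lay on the 9 Zscan4 genes, which share reads, and 2 were those of the island. Some of the others share reads too, so the covered windows are not separate observations. The covered windows held 69.1%, 65.0% and 82.0% of the cluster's alignments in litters 1, 2 and 3. No alignment at all was found in 805 windows (53.7%). Litter 2 passed the threshold in 198 windows, litter 1 in 92 and litter 3 in 79. Of the 126 windows covered in a single litter, 96 were covered in litter 2. Empty windows and windows of a single litter were not counted outside the cluster, so no background share stands beside them.

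**Figure D1:**
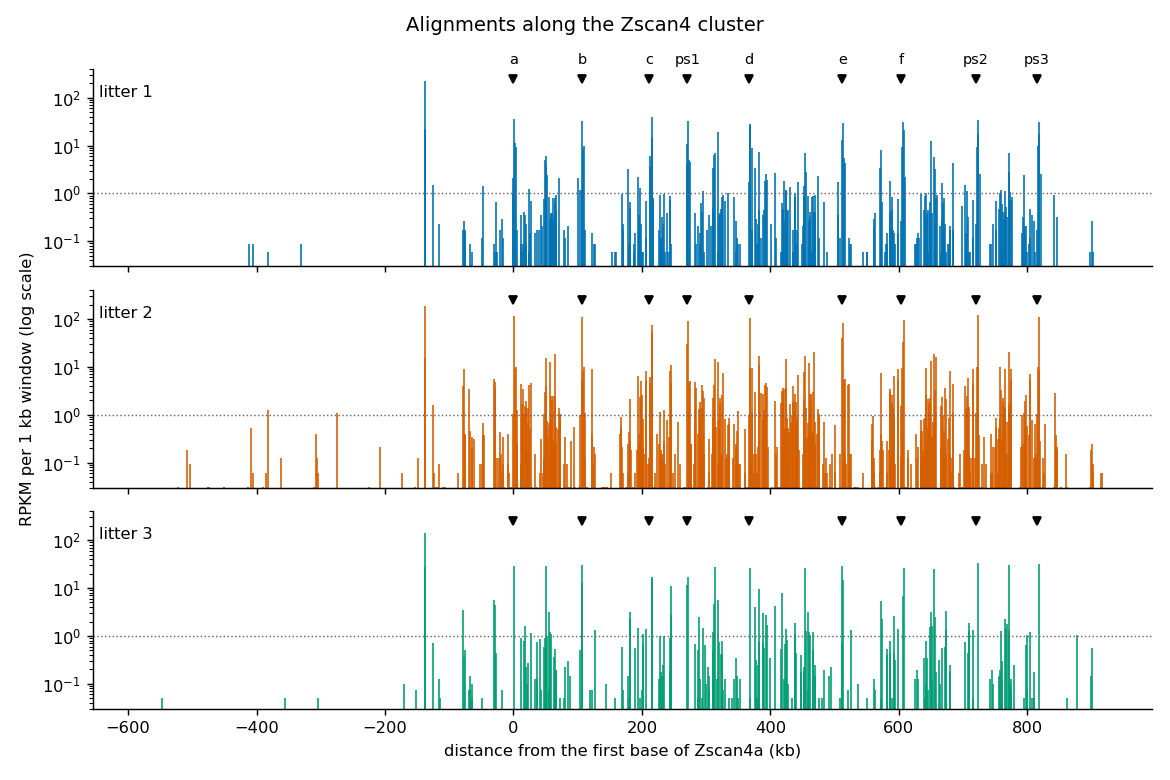
RPKM of each 1 kb window (log scale) against the distance from the first base of Zscan4a in kb, with a panel for each litter; triangles mark the 9 Zscan4 genes and the dotted line the threshold of 1 RPKM. A peak stood at every Zscan4 gene in every litter, and the highest bar, left of Zscan4a, belongs to the island, whose 2 windows had a mean of 102 RPKM.

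The annotation used here is of another build, so the 9 annotated Zscan4 gene models were slid along the region as a rigid set with their mutual distances kept. Of 680129 places, the best put 11359 distinct start positions inside exons and 957 elsewhere inside the genes. The difference of 10402 compares with 1869 at the next best separate place and with 2762 for the set in mirror image. The exact base was set by the counts of copies on opposite strands. At that base all 8084 pairs of identical 72-base stretches on opposite strands had the same counts in all 3 litters, and at 1 to 10 bases to either side 3.50% to 4.53% of pairs did. Identical stretches of copies on the same strand had equal counts in 8389 of 8389 pairs. The mm9 positions of all 9 genes rest on this fit. The first bases of neighbouring copies lay 59394 to 145004 bases apart.

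All 9 annotated Zscan4 genes were covered, the 3 markers of the 2-cell stage included. Zscan4c, at chr7:11591094-11595896 on the plus strand, had 30.6, 66.6 and 16.2 RPKM over its exons in litters 1, 2 and 3. Zscan4d, at chr7:11746723-11751508 on the minus strand, had 31.2, 61.4 and 12.9 RPKM. Zscan4f, at chr7:11983264-11987667 on the plus strand, had 39.4, 87.6 and 21.3 RPKM. In each of these genes litter 2 was highest and litter 3 lowest.

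The other genes of the family that are not named as pseudogenes had like values. Zscan4a, at chr7:11379591-11384406 on the minus strand, had 28.0, 65.1 and 14.8 RPKM in litters 1, 2 and 3. For Zscan4b, at chr7:11486089-11490376 on the minus strand, the values were 33.5, 82.6 and 20.3 RPKM. Zscan4e, at chr7:11891727-11896031 on the minus strand, had 34.2, 83.5 and 20.4 RPKM. The genes named as pseudogenes stood at the same height. The values of Zscan4-ps1, at chr7:11650488-11655040 on the minus strand, were 30.4, 74.6 and 16.4 RPKM. Zscan4-ps2, at chr7:12099659-12104460 on the plus strand, had 30.1, 67.8 and 16.4 RPKM. Zscan4-ps3, at chr7:12194657-12199461 on the plus strand, had 28.5, 63.9 and 15.8 RPKM. Across the 9 copies the range was 28.0 to 39.4 RPKM in litter 1, 61.4 to 87.6 in litter 2 and 12.9 to 21.3 in litter 3. The ranges of the 3 litters do not overlap, but the copies share reads and are not 9 separate measurements. The models also differ in exon length, from 1745 exonic bases in Zscan4e to 2279 in Zscan4a, and the longer ones hold more bases with few alignments.

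Of the alignments inside gene bounds, 97.2% to 97.9% lay wholly within an exon in each copy. The models were placed to bring starts into exons, so this share describes the fit and is no test of it. Together the exons of the family took 48.8%, 52.3% and 33.9% of the cluster's alignments in litters 1, 2 and 3 on 1.08% of its bases. The start positions were many and shallow: each copy had 1145 to 1332 distinct starts over the litters, and the deepest start in the exons held 12, 25 and 12 alignments in litters 1, 2 and 3. The highest 1 kb window of each copy had a mean of 42.1 to 62.1 RPKM. Of all nuclear windows, 0.0737% to 0.121% were at or above these means.

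To measure the family without counting a read at several copies, the exons were aligned and the highest copy was taken at each of 1449 aligned positions. The family level was 48.5, 98.1 and 24.7 RPKM in litters 1, 2 and 3, a mean of 57.1 ± 37.5 (SD, n = 3). Litter 2 thus stood highest by this measure too.

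This order of litters did not hold in every exon. Exon 2, the first exon long enough for many starts, had 300 to 319 alignments per copy in litter 1, 300 to 310 in litter 2 and 0 in litter 3. Taken a single time over the copies, exon 2 had 23.9, 24.7 and 0 RPKM in litters 1, 2 and 3, and a count of 0 allows up to 0.185 RPKM in litter 3 (3 alignments, counting error only). Exon 3 had 73.3, 55.4 and 0.278 RPKM, where the last value is 1 alignment. Exon 4 had 56.4, 133 and 37.2 RPKM. Litters 1 and 2 therefore had close values in exon 2, while litter 3 had none there and kept exon 4.

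The ratio of exon 4 to exon 2 was 2.36 in litter 1 and 5.38 in litter 2. In litter 3 exon 4 was at least 201-fold higher than exon 2, with exon 2 put at the floor of 3 alignments over the exon. Within exon 4 the ratio of litter 2 to litter 1 was 2.35, that of litter 2 to litter 3 was 3.56 and that of litter 1 to litter 3 was 1.52. Exon 1 was too short for more than a few start positions and had 0 to 11 alignments per copy in any litter.

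**Figure D2:**
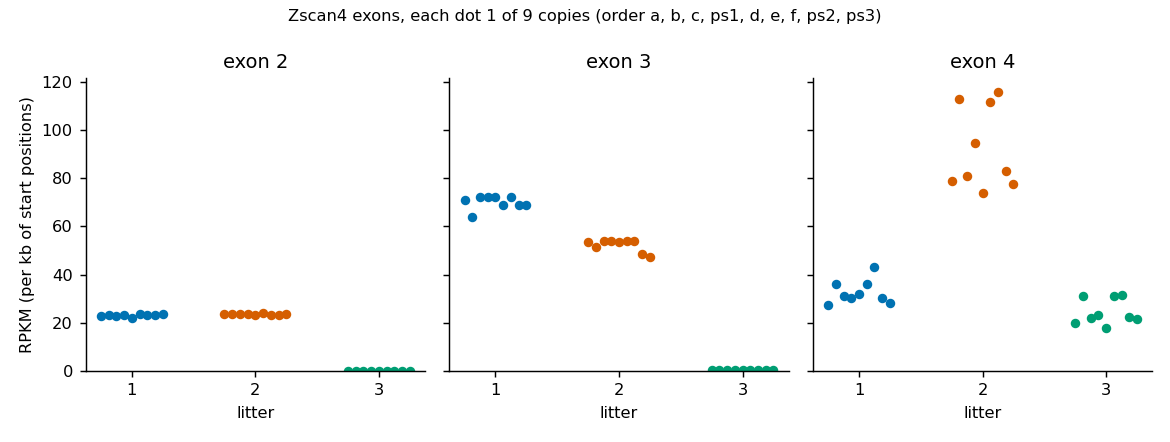
RPKM per kb of start positions in exons 2, 3 and 4 of the 9 Zscan4 copies (dots, in genome order) in litters 1, 2 and 3. The copies of a litter lie close together in exons 2 and 3, litter 3 is at or near 0 in both, and litter 2 is highest in exon 4.

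Along exon 4 the order of the litters changed with the position. In its first 200 bases the copies had 129 to 646 alignments in litter 1, 43 to 127 in litter 2 and 0 to 16 in litter 3. The highest value of litter 1, 646, was that of Zscan4d. From base 201 to base 800 the counts were 647 to 804 in litter 1, 2640 to 3098 in litter 2 and 655 to 935 in litter 3. The copies differed by little in this middle stretch, and litters 1 and 3 overlapped. The annotated coding sequence ends at base 983 of exon 4, or at base 980 in Zscan4b and Zscan4e. The model used for Zscan4a has no annotated coding sequence, while those of Zscan4-ps1, Zscan4-ps2 and Zscan4-ps3 have one that ends at base 983. Past these ends, from base 1001 to base 1500 on from the exon start, there were 0 to 13 alignments in litter 1, 13 to 134 in litter 2 and 0 to 343 in litter 3. In litter 3 Zscan4b had 343 and Zscan4e 342 of these alignments. All of them lay past the annotated ends of their last exons (1040 and 1031 bases long), outside the gene models. Zscan4f had 11 or fewer alignments in any 100 bases there in litter 3. In the first 200 bases litter 1 was thus the highest. Past the coding end litter 3 was the highest at Zscan4b and Zscan4e, while over the 9 copies the medians were 9, 55 and 11 in litters 1, 2 and 3. Why litter 3 had so few alignments in the exons before exon 4 was not tested. Whether other genes had few alignments towards their 5′ ends in litter 3 was not tested either, since no annotation of the build of the files was used.

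**Figure D3:**
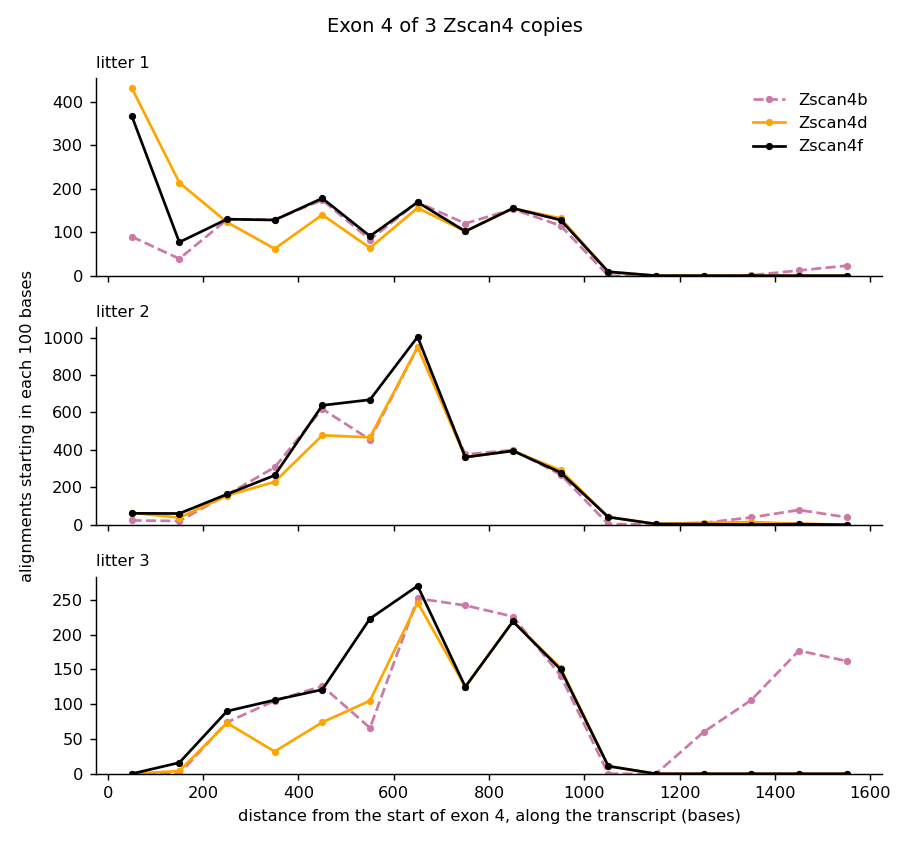
Alignments starting in each 100 bases of exon 4 and beyond, by distance from the exon start in bases, for Zscan4b, Zscan4d and Zscan4f in litters 1, 2 and 3. In litter 1 Zscan4d is highest in the first 200 bases, and in litter 3 Zscan4b alone carries alignments past base 1200.

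Copy-to-copy equality was graded by sequence, over pairs of copies at aligned positions with 10 or more alignments between them. Pairs with the same 72 bases had equal counts in all 3 litters in 7417 of 7417 cases (100%). With 1 base different, 71.5% of 5391 pairs were equal, and with 2 bases 51.8% of 3627. At 3 differences the share was 24.0% of 1922 pairs, at 4 it was 7.84% of 778, at 5 it was 0.962% of 416 and at 6 it was 0.358% of 279. With 7 or more differences, none of 519 pairs was equal. The lower count averaged 95.6% of the higher at 1 difference and 92.2% at 2. It was 83.4% at 3 differences and 54.5% at 4. The largest step in this measure lay between 3 and 4 differences. A copy with no alignment beside one that had them was found in 0.416% of pairs at 3 differences and in 10.2% at 4. At 46 of the 1449 aligned positions all 9 copies had the same 72 bases.

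**Figure D4:**
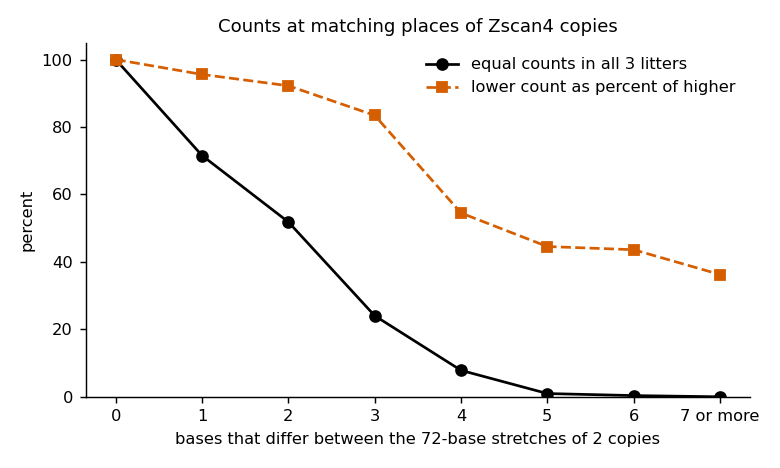
Percent of position pairs with equal counts in all 3 litters (circles) and the mean of the lower count as a percent of the higher (squares), against the number of bases that differ between the copies. Equality is 100% at 0 differences and 0% at 7 or more, and the lower count drops from 83.4% to 54.5% of the higher between 3 and 4 differences.

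The closest copies by sequence were Zscan4b and Zscan4e, with the same 72 bases at 87.0% of positions. They had equal counts in all litters at 94.8% of positions with 10 or more alignments between them. Zscan4f and Zscan4-ps2 had the same bases at 82.9% of positions and equal counts at 96.4%. For Zscan4c and Zscan4f the shares were 77.1% and 87.9%. The farthest apart by sequence were Zscan4b and Zscan4d, with 12.8% of stretches the same and 51.8% of counts equal. Copies on opposite strands and far apart thus carried the same counts, and a level at a single copy does not show that this copy was transcribed.

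Where the copies differ, the copy with the highest sum was not the same in all 3 litters. For each copy the alignments were summed over the 1449 positions and set against the sum of the highest copy at each position, and no copy reached 100% in any litter. In litter 1 the highest was Zscan4d with 86.1%, followed by Zscan4c with 84.7% and Zscan4f with 84.5%. This lead lay in the first 200 bases of exon 4, with 646 alignments at Zscan4d, 465 at Zscan4c and 445 at Zscan4f in litter 1. Litters 2 and 3 had fewer alignments in those bases. From base 201 to base 800 Zscan4d was the lowest of the 9 copies in every litter, with 647, 2640 and 655 alignments. The order of the copies thus depends on where a litter has its alignments. In litter 2 Zscan4f had 92.3% and Zscan4-ps2 91.9%, and Zscan4d was the lowest of the 9 with 82.0%. In litter 3 Zscan4f had 89.0% and Zscan4-ps2 88.3%, and Zscan4d was again the lowest with 69.0%. Zscan4b, the lowest in litter 1 with 70.6%, had 83.3% in litter 3. Zscan4d exceeded Zscan4f at 119 positions in litter 1, 82 in litter 2 and 7 in litter 3, and Zscan4f exceeded Zscan4d at 130, 245 and 162.

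**Figure D5:**
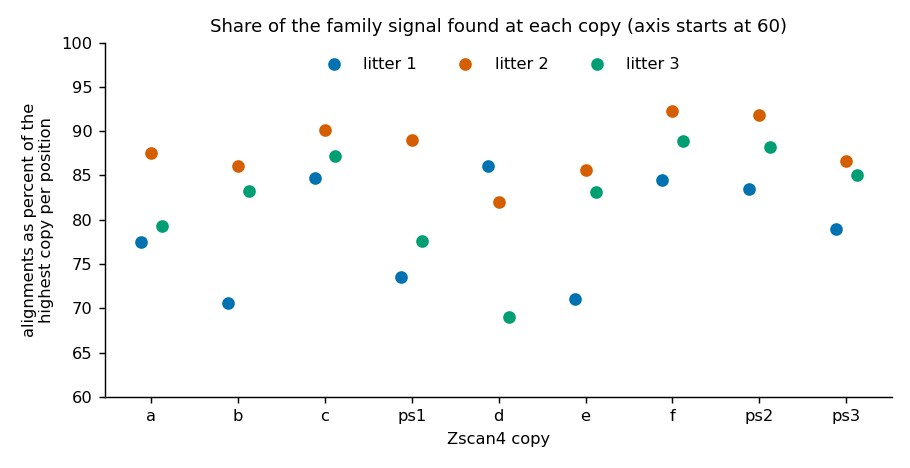
Alignments at each Zscan4 copy as a percent of the sum of the highest copy per position (axis from 60 to 100) in litters 1, 2 and 3. Zscan4d is the highest copy in litter 1 and the lowest in litters 2 and 3. Its lead in litter 1 lies in the first 200 bases of exon 4, where litters 2 and 3 had fewer alignments.

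Alignments that exceeded every other copy were few, and their place changed with the litter. Zscan4d had 82 such alignments in litter 1, at 36 positions, 17 in litter 2 and 3 in litter 3. They made up 3.43%, 0.369% and 0.207% of the family sum. Zscan4b and Zscan4e, joined because they are the closest pair by sequence, exceeded the other copies by 79, 165 and 135 alignments in litters 1, 2 and 3. These made up 3.31%, 3.58% and 9.32% of the family sum. Zscan4f and Zscan4-ps2, the pair with the highest share of equal counts, together exceeded the rest by 4, 1 and 0 alignments. Zscan4f alone had 0 in every litter, although its sum was the highest in litters 2 and 3. Zscan4c, Zscan4f and Zscan4-ps2 together exceeded the rest by 7, 20 and 9 alignments in litters 1, 2 and 3. Zscan4a had 20, 12 and 0, and Zscan4-ps1 6, 28 and 1. Zscan4-ps3 had 0, 3 and 4. Zscan4c alone had 0, 5 and 4, Zscan4b alone 0, 13 and 0, and Zscan4e alone 0 in every litter. Each litter thus held some alignments that fit Zscan4d, or Zscan4b and Zscan4e joined, better than the remaining copies. Other copies had such alignments too. Zscan4-ps1 had more than Zscan4d in litter 2, and Zscan4c and Zscan4-ps3 had more in litter 3. The amplification can raise single molecules to several alignments, and its part in these counts was not tested.

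The 39 covered windows formed 27 blocks, with windows at most 2 kb apart joined. Of these, 9 blocks with 14 windows lay on the 9 Zscan4 genes, 1 block to a gene, and 18 lay elsewhere. The Zscan4 blocks were the highest in litter 2 in 9 of 9 cases. The 18 other blocks were highest in litter 1 in 3 cases, in litter 2 in 8 and in litter 3 in 7. The Zscan4 blocks share reads, as do some of the other blocks, so these cases are not separate observations. The 10 blocks with the most alignments were the 9 Zscan4 blocks and the island. The other 17 blocks had means of 1.31 to 16.8 RPKM, and the Zscan4 blocks had means of 32.1 to 62.1 RPKM over their windows.

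The island was the block with the most alignments in the cluster. It lay at chr7:11241001-11243000, before the first Zscan4 gene, and had 8444, 6409 and 6706 alignments in litters 1, 2 and 3. Its level was 124, 98.8 and 82.8 RPKM, a mean of 102 ± 20.8 (SD, n = 3). Unlike the Zscan4 blocks, it was highest in litter 1, and its coefficient of variation was 20.4%, against 66.0% to 84.3% in the Zscan4 blocks. It had 465, 474 and 491 distinct starts. It was left without a gene name because it lies outside the span in which the gene models were placed.

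Counts of the island recurred at other chromosomes. Recurrence was measured on pairs of neighbouring starts at most 30 bases apart, each with alignments in every litter and with 20 or more between them, whose counts in all litters were found again at the same distance. Of the 405 pairs of the island, 30.6% recurred in the 5 kb that start at 71.505 Mb of chromosome X, 23.2% in those at 86.935 Mb of chromosome 7 and 22.5% in those at 118.745 Mb of chromosome 9, and 24 places held 5 or more of its pairs. No other block of the cluster shared a pair with it. Counts of the island were thus found on several chromosomes, and its alignments cannot be assigned to the Zscan4 cluster alone. The Zscan4 blocks shared at most 2 pairs with any place outside the cluster, so their counts recurred within the cluster.

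Apart from the 9 Zscan4 genes, the annotation lists 44 genes between the outermost Zscan4 genes, 41 of them pseudogenes and 3 miRNA genes. Some of the blocks on these pseudogenes, named here after their values were seen, shared start pairs with each other. The blocks on Gm7789, Gm7151 and Gm6909 had 0 start pairs that met the rule, and that on Gm9689 had 1. Sharing could therefore not be measured in them. A family of 5 blocks was highest in litter 3. Its first member, at chr7:11430001-11431000, had 6.03, 15.0 and 29.3 RPKM in litters 1, 2 and 3. The member at chr7:11690001-11694000, on Gm4157, had 4.31, 5.65 and 8.52 RPKM. Those on Gm5996 had 4.90, 9.16 and 13.8, and on Gm7839 4.51, 10.8 and 13.6 RPKM. The member on Gm7848, at chr7:12150001-12152000, had 4.91, 10.9 and 16.1 RPKM. Every member shared start pairs with the other 4, and 17.5% to 44.2% of the pairs recurred in the 5 kb at 113.71 Mb of chromosome 14. These levels are therefore shared between blocks and with another chromosome, and the 5 values are not separate measurements.

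Among the remaining blocks, Gm3774 had 19.0, 12.9 and 5.61 RPKM in litters 1, 2 and 3, and Gm9604, with which it shared 9 start pairs, had 12.4, 13.5 and 3.21 RPKM. Gm45596 had 8.14, 7.55 and 5.44 RPKM. These blocks rested on few starts in litter 1, with 70 for Gm3774 and 37 each for Gm9604 and Gm45596. A block on Gm18204 at chr7:11761001-11762000 had 7.23, 11.2 and 9.56 RPKM, and 4 of its 8 start pairs recurred in the 5 kb at 100.475 Mb of chromosome 13.

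At both ends of the region most windows had no alignment. Before the first Zscan4 gene, 484 of 579 windows had no alignment in any litter, and the 2 covered windows were those of the island. After the last Zscan4 gene there were 100 windows, 73 of them without an alignment, and none was covered. Those 100 windows held 144, 183 and 81 alignments in litters 1, 2 and 3. Between the outermost Zscan4 genes lay 821 windows with 37 of the covered ones. They held 26626, 63793 and 25080 alignments. Where the receptor genes lie on mm9 was not checked, so the ends are given by position only. Empty windows were not counted outside the region, so these counts do not show whether the ends are emptier than other sequence.

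The cluster varied more between litters than other nuclear sequence of like depth. The median coefficient of variation, less the counting variance, was 86.0% over 66 cluster windows with a mean of 100 or more alignments, against 67.2% over 42386 other nuclear windows. In windows with a mean of 100 to 1000 it was 86.2% over 56 windows in the cluster and 75.5% elsewhere. At a mean of 1000 or more it was 79.7% over 10 windows in the cluster and 29.6% over 5234 elsewhere. These differences were not tested, since cluster windows share reads and are not independent.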

How the data were processed

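RNA of 2-cell embryos from 3 litters was amplified with SPIA, sheared (Covaris) and made into Illumina libraries, per the labels' protocols. The authors used Bowtie and the mm9 build, per the submitters' processing notes. How it treated multiple matches is not given in the sources used here, nor is its version. The deposited signal is unscaled coverage per base in whole numbers, per the file headers and values. It split exactly into 72-base alignments (0 negative nuclear starts), as it did in a test on simulated data. Intervals and floors cover counting error only.

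The region and gene lists were chosen with earlier results of these data known. Gene models and transcript sequences come from GENCODE M21, made for GRCm38, and no coordinate was converted: the 9 Zscan4 models were slid along the region. The criterion planned, most alignments in exons, placed models on the island, so distinct start positions were used, chosen after seeing the data. Exon levels divide by the number of whole 72-base starts. The rule for naming blocks took the 10 with the most alignments and those on Zscan4 genes, and the pseudogene blocks were named after their values were seen. Alternatives were the threshold, window size, joining distance, scaling, pseudocount, distinct starts and leaving out each litter. The labels call the litters replicates, and each is a single library. Tools were MAFFT 7.526 for aligning exons, numpy 2.4.6 and pandas 2.3.3 under Python 3.11.15.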

Additional observations from a re-analysis of the deposited data

How the results depend on the processing

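The count of 39 covered windows depended on the settings: it was 62 at 0.5 RPKM, 79 with each start position counted a single time and 23 with windows of 2 kb, of which there are fewer to begin with. Leaving out each litter in turn gave 39 to 78, with 63 without litter 1, 39 without litter 2 and 78 without litter 3. The 27 blocks became 43 at 0.5 RPKM and 51 with distinct starts, and 27 to 46 without a litter, of which 46 was without litter 1 and 27 without litter 2. A window had to pass in every litter kept, so a lower threshold or a litter left out can only keep or raise the count of windows. Why the other settings changed the counts was not tested. The 9 Zscan4 blocks were found at 0.5 and 2 RPKM and without each litter. The cluster density was 0.616 to 1.09 RPKM without a litter, the lowest without litter 2, and the family level was 36.6 to 73.3 RPKM, the lowest without litter 2. The log2 ratio to the rest of chromosome 7 was 0.50 with a pseudocount of 1 and 0.82 to 1.41 without a litter. The median variation of the cluster was 66.8% without litter 3 and 90.8% without litter 1. The planned measure of recurring counts, 50 alignments at a start in every litter, had 1 start and 0 recurring; leaving out each litter in turn also gave 0%, and at a minimum of 100 no start was left. The planned minimum of 20 alignments in every litter gave 82 starts, of which 0 recurred. No start in the Zscan4 exons could enter these planned counts, since the deepest held 12, 25 and 12 alignments in litters 1, 2 and 3. The planned counts therefore do not measure equality between the Zscan4 copies. With 20 alignments over all litters together and at least 2 litters with any, chosen after seeing the data, 521 of 904 starts (57.6%) had counts equal to another in the cluster. No paired analysis was possible because there is only 1 group. With a single library a litter, embryo-to-embryo differences and amplification cannot be told apart.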

Other observations

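Some cluster windows were covered in a single litter. With 100 or more alignments in 1 litter and at most 5% of that in each of the others, 19 windows were found, 18 of them in litter 2, where they held 4328 alignments. The highest, chr7:11847001-11848000, had 14, 670 and 0 alignments in litters 1, 2 and 3. The only such window of litter 1, chr7:11649001-11650000, lies next to Zscan4-ps1 and had 141, 0 and 0 alignments. None was found for litter 3. This measure was chosen after seeing the data. It is given for the cluster only, so it does not show whether such windows are more frequent here than elsewhere in litter 2.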
